A study of Danio rerio with 6 samples.

Results

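Bone morphogenetic proteins (BMPs) and the transforming growth factor beta (TGF-beta) ligands form one signaling superfamily, and its genes were examined in hindbrains of *gas6* mutant zebrafish. Pathway genes were taken from the deposited table by name, as every row whose name begins with that of a BMP, GDF, activin or TGF-beta ligand, a receptor, a Smad, a noggin, gremlin, follistatin or other antagonist, or an *id* or *msx* target gene. The *id* and follistatin names had to match to their end, apart from a final a or b for follistatin. Thus *id2a*, *id2b* and the *fstl* genes are not members and are in a further list described below. The rule found 83 of 23025 genes. They were grouped by role into 27 ligands, 19 receptors, 11 Smads, 14 antagonists, 8 targets, 2 proteases of the tolloid family and 2 other names (*bmp2k* and *tgfbrap1*).

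The study asked which genes depend on *gas6*, whose secreted product activates receptor tyrosine kinases of the Tyro3, Axl and Mertk family. RNA was sequenced from pools of hindbrains dissected at 48 hours post fertilization (hpf), in 3 libraries from wildtype control embryos and 3 from homozygous *gas6*-/- mutants. Both groups carried the *Tg(olig2:EGFP)* transgene, which expresses EGFP under *olig2* regulatory sequences and whose fluorescence guided the dissection. The mutant line carries a small frameshifting deletion in the first exon of *gas6*. The line descends from a single founder that passed on several such alleles, and which allele the sequenced embryos carried is not given in the sources used here. The mutant embryos came from homozygous parents and the controls from the transgenic line, so that the effect of the mutation and a difference between the lines cannot be told apart. Nothing says whether the 3 libraries of a genotype came from separate clutches, so p-values measure only the spread between these libraries.

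BMP and TGF-beta ligands are secreted dimers that bring together type I and type II receptor kinases. The type I receptor phosphorylates receptor-regulated Smads, which are Smad1, Smad5 and Smad9 for BMPs and Smad2 and Smad3 for TGF-beta and activins, and these enter the nucleus with the common partner Smad4. Inhibitory Smads, the pseudoreceptor Bambi and secreted binding proteins such as Noggin, Gremlin and Follistatin hold the signal in check. In the hindbrain, BMPs from the roof plate pattern the dorsal neural tube, and *id* and *msx* genes are among their best known targets.

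Total counts per library ranged from 18376627 to 27025868. *gas6* itself was at 42.9, 37.7 and 36.8 CPM in the wildtype libraries and at 5.32, 5.47 and 4.24 CPM in the mutants (log2 fold change -2.97, SE 0.14, adjusted p = 7.22e-08). CPM are counts per 1000000 of the scaled library, and fold changes compare mutants with wildtype, with negative log2 values for genes lower in mutants. Adjusted p-values come from edgeR's quasi-likelihood test with Benjamini-Hochberg adjustment over all 20463 genes tested, and a gene was called at an adjusted p under 0.05. All 13 hindbrain markers checked were detected, among them *hoxb1a* and *egr2b*. Of these 13 markers, 7 fell and none rose, with a summed level of 1069 to 1299 CPM in wildtype and 903 to 997 CPM in the mutants.

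Markers of some tissues near the hindbrain differed between the genotypes as well. The 11 lens genes checked all rose, from a summed level of 1.55 to 33.9 CPM in wildtype to 484 to 1145 CPM in mutants, so that the mutant libraries held more lens RNA. For 12 retina genes the ranges were 22.6 to 36.7 CPM and 92.7 to 126 CPM. For 14 forebrain genes they were 346 to 384 CPM and 426 to 466 CPM. Summed cartilage and craniofacial mesenchyme genes overlapped between the genotypes, at 4110 to 4341 CPM against 4205 to 5640 CPM, with 6 of 11 genes up. In contrast, a list of 12 roof plate and rhombic lip genes fell from 441 to 543 CPM to 277 to 314 CPM, with 7 genes down and none up. Of these 12 genes, 4 (*gdf6a*, *gdf7*, *msxb* and *msxe*) are also pathway members. *atoh1a*, called lower, is both in this list and among the hindbrain markers. Summed levels overlapped for the otic vesicle list as well, at 730 to 830 CPM and 700 to 816 CPM, with 2 of 10 genes up and 1 down. They also overlapped for endothelium (2 of 8 genes up), epidermis (1 of 10 up) and skeletal muscle (1 of 10 up). Over all genes tested, 16.7% were called higher and 16.6% lower. No gene on these lists was at 0 in all libraries. In bulk tissue fewer cells of a type and less RNA per cell cannot be told apart, and the part of these shifts in the results that follow was not tested.

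Of the 83 pathway genes, 80 had enough counts to be tested, and *bmp15*, *gdf9* and *BMP10* did not. Their counts were at most 9 in any library. Among the 80, 25 were called, 15 up and 10 down. Over all genes tested, 33.3% were called (16.7% up and 16.6% down), so that the 31.3% of pathway genes called lay close to the share of all genes. The median log2 fold change was 0.03 for the pathway genes and 0.02 for all genes, and 6 pathway genes changed more than 2-fold, against 9.65% of all genes. Levels of the genotypes did not overlap in 40 of the 80, where 49.0% of all genes did not overlap. On each of these counts the share among the pathway genes was close to or below that among all genes, so that the results below are about single members and not the list.

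**Figure D1:**
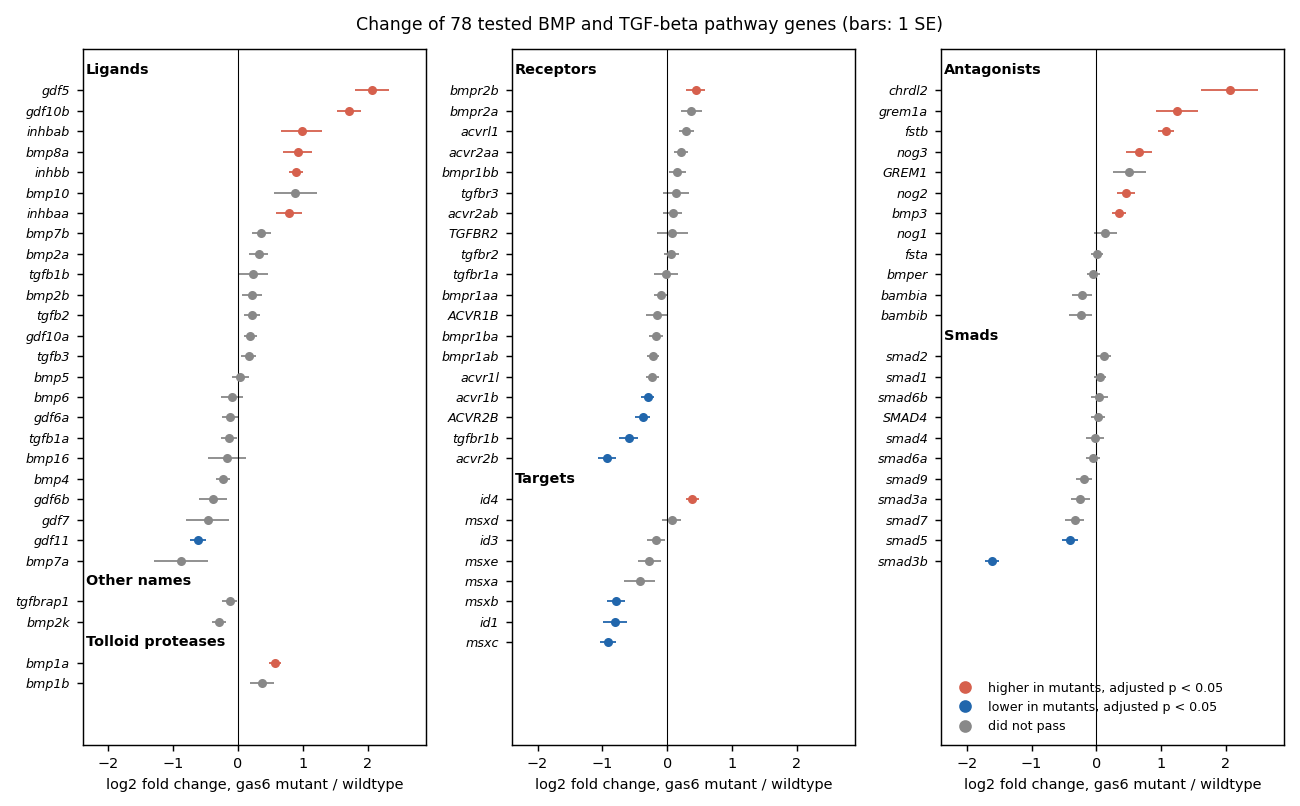
Log2 fold change of 78 of the 80 tested pathway genes between *gas6* mutant and wildtype hindbrains, by role (x axis; bars are 1 SE, n = 3 libraries per genotype). Red genes were called higher and blue genes lower in mutants, and the lowest value is that of *smad3b* at -1.61.

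The smallest adjusted p among the pathway genes was that of *smad3b*, one of the zebrafish copies of *smad3*, which encodes a Smad that carries TGF-beta and activin signals. It was at 105, 98.9 and 113 CPM in wildtype and at 31.3, 35.2 and 37.0 CPM in mutants. The mutant level was thus 32.7% of wildtype, with a gap between the genotypes far wider than the spread within either (log2 fold change -1.61, SE 0.11, adjusted p = 1.01e-06). The call held in each of the 13 alternatives run, with values from -1.67 to -1.47. Its sister copy *smad3a* was at 29.3, 40.3 and 43.2 CPM in wildtype and 27.2, 33.1 and 34.7 CPM in mutants. The *smad3a* ranges overlapped and the gene did not pass (-0.25, SE 0.15, adjusted p = 0.221), although it was called without wildtype replicate 1, its lowest wildtype library.

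Of the 11 Smads, 18.2% were called, against 33.3% of all genes. The only other Smad gene called was *smad5*. It encodes a BMP-activated Smad and was at 107, 94.8 and 93.5 CPM in wildtype and 59.9, 79.6 and 82.9 CPM in mutants (-0.41, SE 0.13, adjusted p = 0.0268). The *smad5* call was lost without wildtype replicate 1, without mutant replicate 1 and when libraries were scaled to their totals alone (adjusted p from 0.0115 to 0.109 over 13 alternatives), and the last of these lowered the value to -0.26. The related BMP Smad *smad1* varied least, with 77.5 ± 2.08 CPM in wildtype and 80.4 ± 4.34 CPM in mutants (SD, n = 3; 0.05, SE 0.09, adjusted p = 0.696). Neither *smad2*, *smad9*, the common Smads *smad4* and *SMAD4*, nor the inhibitory *smad6a*, *smad6b* and *smad7* passed, with log2 fold changes from -0.34 to 0.11. Among the inhibitory Smads the lowest value was that of *smad7*, at -0.34 (SE 0.15, adjusted p = 0.103).

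**Figure D2:**
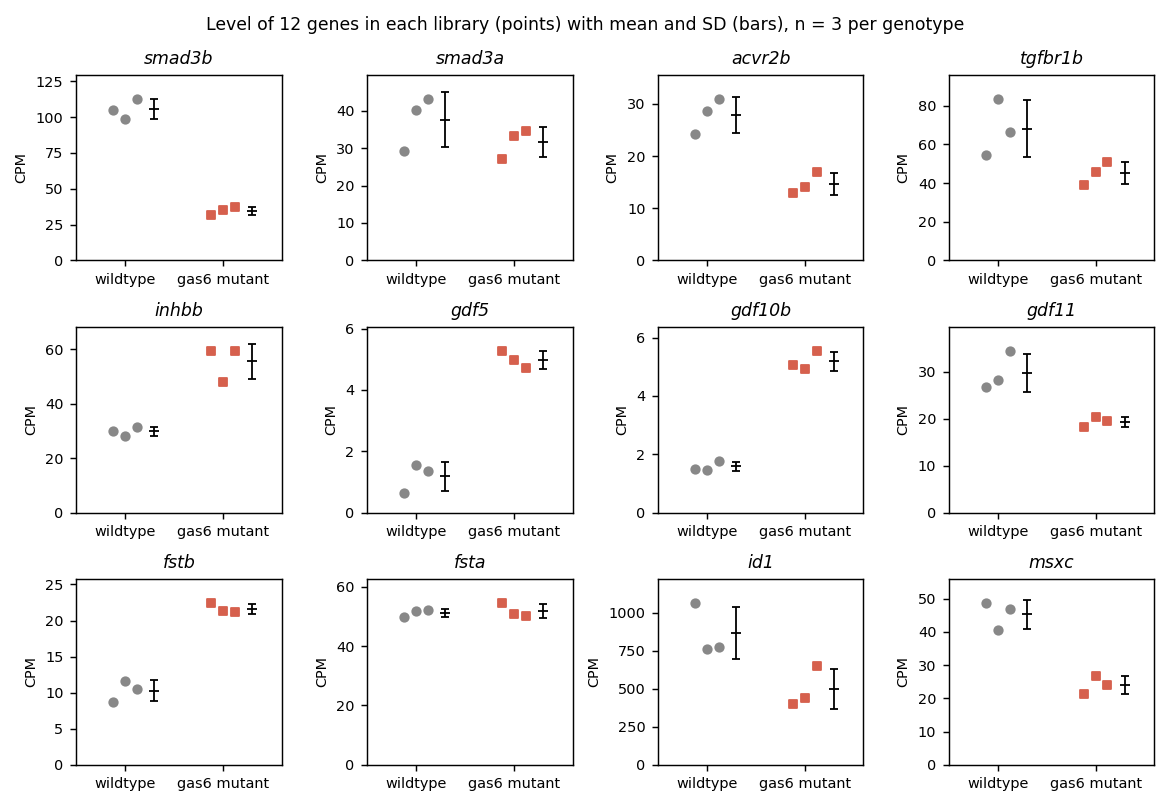
Level in CPM (y axis, from 0) of 12 pathway genes in each library, with replicates 1 to 3 from left to right, wildtype in gray and *gas6* mutant in red, and mean and SD beside them (n = 3). *smad3b* is at 98.9 to 113 CPM in wildtype and 31.3 to 37.0 CPM in mutants, while *smad3a* and *fsta* overlap.

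Of 24 ligands tested, 6 rose (25.0%, against 16.7% of all genes) and 1 fell, with a median log2 fold change of 0.20 against 0.02 over all genes. This difference was not tested. The clearest subgroup was that of the inhibin beta subunits, whose dimers are the activins. All 3 were called higher in mutants. *inhbb* rose from 30.1, 28.3 and 31.6 CPM to 59.3, 48.2 and 59.4 CPM (0.89, SE 0.11, adjusted p = 0.000134). Each mutant library was thus well above each wildtype library. *inhbaa* rose from 2.69, 4.66 and 3.68 CPM to 6.54, 6.76 and 5.83 CPM (0.79, SE 0.20, adjusted p = 0.0104). *inhbab* was low throughout, with 12 to 16 counts per wildtype library and 20 to 43 counts per mutant library (0.98, SE 0.31, adjusted p = 0.0309). Its call was lost in 5 of 13 alternatives, among them without wildtype replicate 2 or 3, without mutant replicate 2 and under DESeq2 (adjusted p from 0.018 to 0.155). The call held under a filter of 1 CPM in 3 libraries, which *inhbab* met only through the mutants. It was at 0.504 to 0.729 CPM in wildtype and 1.01 to 1.54 CPM in mutants.

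Among ligands the largest increases were those of 2 growth differentiation factor genes. *gdf5*, known from joint and cartilage development, was at 0.638, 1.55 and 1.35 CPM in wildtype and at 5.27, 4.97 and 4.71 CPM in mutants. This was a 4.18-fold higher level (log2 fold change 2.06, SE 0.26, adjusted p = 0.000139), with the groups well apart. Summed levels of the cartilage list described above overlapped between the genotypes, with 6 of its 11 genes up. The part of that list in the change of *gdf5* was not tested. *gdf10b*, a relative of *bmp3*, was at 1.503, 1.47 and 1.77 CPM in wildtype and at 5.07, 4.93 and 5.54 CPM in mutants (3.27-fold, log2 fold change 1.71, SE 0.19, adjusted p = 5.19e-05). Its sister copy *gdf10a* did not pass (0.19, SE 0.10, adjusted p = 0.169), although its mutant libraries (63.6, 67.1 and 72.5 CPM) all lay above its wildtype libraries (62.3, 54.4 and 61.5 CPM). With library totals as the only scaling *gdf10a* passed at 0.34 (adjusted p = 0.0219).

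The only ligand called lower was *gdf11*, which encodes an activin-like ligand that in the mouse restrains neurogenesis and patterns the axial skeleton. Its level was 26.7, 28.1 and 34.4 CPM in wildtype and 18.2, 20.3 and 19.4 CPM in mutants, without overlap (-0.62, SE 0.12, adjusted p = 0.00232). The dorsal genes *gdf6a*, *gdf6b* and *gdf7* were not called at -0.13, -0.39 and -0.47 on the log2 scale. *gdf7*, a roof plate ligand in the mouse, was at 0.683, 1.18 and 0.932 CPM in wildtype and 0.558, 0.822 and 0.615 CPM in mutants, and these ranges overlapped.

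Of the genes of the BMP ligands proper, 1 of 10 tested was called, against 33.3% of all genes (16.7% called higher). This was *bmp8a*, which rose from 1.09, 1.13 and 1.40 CPM to 2.28, 2.32 and 2.24 CPM (0.92, SE 0.23, adjusted p = 0.00868). *bmp4*, a roof plate and epidermal BMP, was at 48.4, 39.6 and 42.8 CPM in wildtype and 34.4, 37.4 and 38.9 CPM in mutants. Its groups just failed to touch, and it did not pass (-0.24, SE 0.11, adjusted p = 0.110). *bmp2a*, *bmp2b*, *bmp5*, *bmp6*, *bmp7a*, *bmp7b*, *bmp10* and *bmp16* did not pass either. Their values ran from -0.87 for *bmp7a*, which was at most 1.30 CPM in any library, to 0.88 for *bmp10* (adjusted p = 0.12525 and 0.0564). Close to the threshold, *bmp10* was called in 4 of the alternatives, among them upper quartile scaling, library totals as the only scaling and without wildtype replicate 3. *bmp7a* was called without mutant replicate 3 and *bmp7b* under library totals as the only scaling and without wildtype replicate 1. The counts of *bmp7a* were 7.15 and 9.01 in mutant replicates 1 and 2. Without mutant replicate 3 it therefore passed the filter on low counts only through the wildtype libraries, where it is high. None of the TGF-beta genes *tgfb1a*, *tgfb1b*, *tgfb2* and *tgfb3* passed, with values from -0.14 to 0.24. The tolloid-family protease gene *bmp1a*, which carries a BMP name but encodes the procollagen C-proteinase, rose from 75.4, 80.2 and 82.2 CPM to 108, 121 and 124 CPM (0.57, SE 0.10, adjusted p = 0.00104). Its copy *bmp1b* had a value of 0.36 (SE 0.19, adjusted p = 0.1505). Of the other names, *bmp2k*, a kinase gene induced by BMP2 in mouse cells, was lower in all mutant libraries but did not pass (-0.29, SE 0.11, adjusted p = 0.0527; called under RLE scaling, under DESeq2 and without wildtype replicate 1, with adjusted p from 0.00699 to 0.348 over 13 alternatives), and neither did *tgfbrap1* (-0.13, SE 0.12, adjusted p = 0.420).

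Of the 19 receptor genes, 4 were called lower and 1 higher (median -0.02). The share called was 26.3%, against 33.3% of all genes. With library totals as the only scaling 1 was called lower and 3 higher, so that no direction holds for the class. *acvr2b*, a type II receptor for activins and GDF11, was at 24.2, 28.7 and 31.0 CPM in wildtype and at 12.9, 14.1 and 17.0 CPM in mutants. All mutant libraries lay below all wildtype libraries (-0.93, SE 0.14, adjusted p = 0.000391). A second row of the same name in capitals, *ACVR2B*, was lower by less (-0.38, SE 0.12, adjusted p = 0.028). *tgfbr1b*, a copy of the type I TGF-beta receptor gene, was at 54.5, 83.6 and 66.5 CPM in wildtype and 39.2, 45.5 and 50.7 CPM in mutants (-0.59, SE 0.15, adjusted p = 0.00993). The wildtype libraries of *tgfbr1b* were spread widely but did not overlap with the mutants, and its copy *tgfbr1a* had a value of -0.02 (SE 0.18, adjusted p = 0.939). *acvr1b*, a type I activin receptor gene, had a small difference from 220 ± 17.5 CPM to 178 ± 9.37 CPM (SD, n = 3; -0.30, SE 0.10, adjusted p = 0.0354). Its row of the same name in capitals, *ACVR1B*, overlapped between the groups and did not pass (-0.16, SE 0.16, adjusted p = 0.466), although it was called without wildtype replicate 1.

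The receptor called higher was *bmpr2b*, a type II BMP receptor gene, at 24.2, 34.4 and 35.9 CPM in wildtype and 43.8, 40.1 and 44.2 CPM in mutants (0.44, SE 0.14, adjusted p = 0.0308). Wildtype replicate 1 was low for this gene, and without it the value was 0.27 (adjusted p = 0.0401, within 0.0184 to 0.085 over 13 alternatives). The *bmpr2b* call was lost without any 1 of the mutant replicates. *ACVR2B* lost its call in 5 alternatives and *acvr1b* in 7 (adjusted p up to 0.177 and 0.286), and with library totals as the only scaling their values shrank to -0.24 and -0.15. *tgfbr1b* lost its call only under that scaling (adjusted p = 0.0527, the highest of 13 alternatives). The BMP type I receptor genes *bmpr1aa*, *bmpr1ab*, *bmpr1ba* and *bmpr1bb* did not pass, with values from -0.22 to 0.16. The type I receptor gene *acvr1l*, which acts in dorsoventral patterning of the embryo, was at 119 ± 6.68 CPM and 101 ± 4.46 CPM (-0.23, SE 0.09, adjusted p = 0.0803), and passed without wildtype replicate 1. *acvrl1*, an endothelial type I receptor gene, was at 26.3, 20.5 and 23.5 CPM in wildtype and 28.7, 27.1 and 30.2 CPM in mutants. Its groups did not overlap but it did not pass (0.29, SE 0.12, adjusted p = 0.0746), although it did under upper quartile scaling, with library totals alone and without wildtype replicate 1. *bmpr2a* had nearly the value of its copy *bmpr2b* with a wider spread (0.37, SE 0.16, adjusted p = 0.0997), its wildtype replicate 1 being low as well, at 22.8 CPM against 38.1 and 37.9 CPM. The type II TGF-beta receptor gene *tgfbr2* and the co-receptor gene *tgfbr3* (betaglycan) had values of 0.06 and 0.13 (adjusted p = 0.716 and 0.626). Calls among the 19 receptors ranged from 2 without mutant replicate 1 or 2, and 3 without wildtype replicate 3 or mutant replicate 3, to 8 without wildtype replicate 1. The cause was not tested.

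Of the 14 antagonists, 6 were called higher in mutants (42.9%, against 16.7% of all genes, a difference that was not tested) and none lower, with a median of 0.29. These 6 include *chrdl2*, which passed the filter on low counts only through the mutants, as described below. Under a filter of 1 CPM in 3 libraries, 4 of 12 antagonists were called higher. Without 1 library the number called higher was as low as 2. The class also depends on the names used, as related genes under other names were not counted in it. Of these, *sost* was called lower without overlap of the groups (-0.60, SE 0.17, adjusted p = 0.0167). As given below, *twsg1b* and *fstl1a* were called lower too, and *twsg1a* and *fstl3* higher. *fstb*, a follistatin gene whose product binds activins, was at 8.70, 11.6 and 10.4 CPM in wildtype and at 22.4, 21.3 and 21.1 CPM in mutants. This was a 2.11-fold higher level (1.07, SE 0.13, adjusted p = 9.87e-05), with narrow groups far apart. *fsta*, its sister copy, was at 49.8, 51.7 and 52.1 CPM in wildtype and 54.5, 50.7 and 50.2 CPM in mutants. The *fsta* groups overlapped (0.02, SE 0.09, adjusted p = 0.916).

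*chrdl2*, a chordin-like BMP-binding protein gene, and *grem1a*, a gremlin gene, rose from very low levels. The counts of *chrdl2* were 3, 2 and 5 in wildtype and 12, 17.7 and 18 in mutants (log2 fold change 2.06, SE 0.44, adjusted p = 0.00429). Those of *grem1a* were 11, 14 and 12 in wildtype and 18, 34 and 48 in mutants (1.24, SE 0.33, adjusted p = 0.0126). *chrdl2* passed the filter on low counts only through the mutants, where it is high, so that a gene like it had to differ to be tested at all. With no filter its adjusted p was 0.00645, the range over 12 alternatives being 0.00387 to 0.0257. A handful of reads decides both folds, and neither gene passed a filter of 1 CPM in 3 libraries. The *grem1a* call was lost without mutant replicate 3 (0.96, adjusted p = 0.0662, within 0.00853 to 0.0662 over 12 alternatives).

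Increases of *nog2*, *nog3* and *bmp3* were smaller. The noggin genes had log2 fold changes of 0.45 and 0.66 (SE 0.14 and 0.20, adjusted p = 0.0265 and 0.0237), and *bmp3*, whose product opposes BMP signals, had 0.35 (SE 0.11, adjusted p = 0.0307). Each of these 3 calls was lost without wildtype replicate 3 and without mutant replicate 2 or 3 (adjusted p up to 0.123). Antagonist calls therefore fell from 6 to 3 without wildtype replicate 3 or mutant replicate 2. Without mutant replicate 3 there were 2 called higher, and *bambia* was called lower. Neither *nog1*, *bmper*, *GREM1*, *fsta*, *bambia* nor *bambib* passed, with values from -0.24 to 0.51. Chordin, listed under its older name *chd* and therefore not among the 83, had a value of -0.06 (adjusted p = 0.830); it was looked up after the other values were seen.

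Target genes split between the members. *id1*, which encodes an inhibitor of basic helix-loop-helix factors and responds directly to BMP Smads, was at 1062, 764 and 771 CPM in wildtype and at 400.1, 440.3 and 647 CPM in mutants. The groups did not overlap, although mutant replicate 3 came close to the lower wildtype libraries (-0.80, SE 0.18, adjusted p = 0.00551). The call held in all 13 alternatives, with values from -1.04 to -0.63. *id3*, a related BMP target, was at 87.8, 60.3 and 68.0 CPM in wildtype and 58.0, 62.9 and 70.7 CPM in mutants. Here the groups overlapped in part, with wildtype replicate 1 above and mutant replicate 1 below the other libraries (-0.17, SE 0.14, adjusted p = 0.358). *id4* rose slightly, from 29.1, 27.3 and 24.9 CPM to 33.4, 36.5 and 36.4 CPM (0.39, SE 0.11, adjusted p = 0.014). Its call was lost without wildtype replicate 3 and without mutant replicate 2 (adjusted p from 0.00247 to 0.0802 over 13 alternatives).

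Among the 5 homeobox genes of the *msx* family, 2 fell and none rose (40.0% called, against 33.3% of all genes called and 16.6% called lower). *msxc*, now named *msx3*, was at 48.7, 40.5 and 46.9 CPM in wildtype and at 21.2, 26.6 and 24.1 CPM in mutants (-0.92, SE 0.12, adjusted p = 0.000158). *msxb*, now *msx1b*, was at 44.1, 36.8 and 37.6 CPM in wildtype and 17.9, 23.7 and 26.8 CPM in mutants (-0.79, SE 0.14, adjusted p = 0.00152). They were at 53.0% and 57.9% of wildtype without overlap of the groups, and both calls held in all 13 alternatives. These genes mark dorsal neural progenitors and neural crest. They fell beside the roof plate and rhombic lip list described above, which includes *msxb* but not *msxc*. The fall of *msxb* is thus part of the fall of that list, and a link between them was not tested. *msxa* (*msx2a*), *msxe* (*msx1a*) and *msxd* (*msx2b*) did not pass, with values of -0.43, -0.27 and 0.07 and adjusted p = 0.184, 0.259 and 0.745. *msxa* was at most 1.82 CPM in any library. The 3 target genes called lower were called under every scaling and with each library left out.

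**Figure D3:**
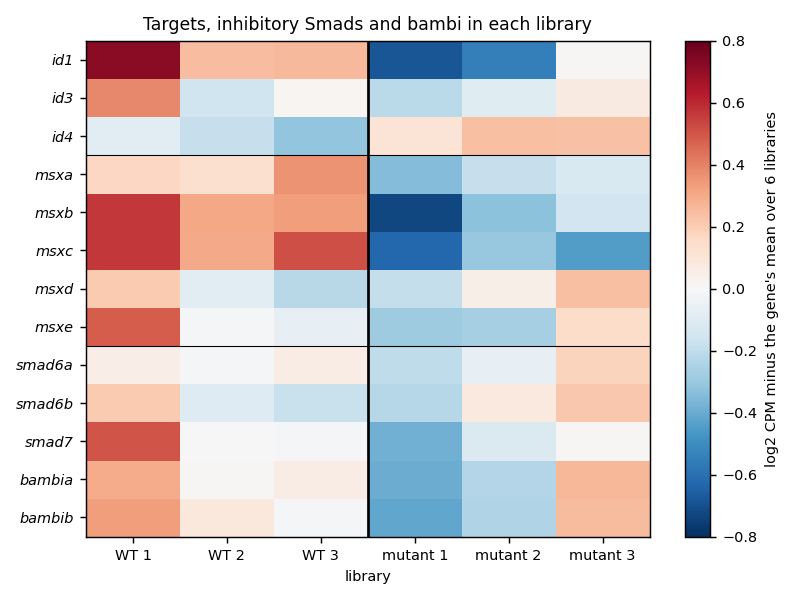
Level of the 8 targets, the 3 inhibitory Smads and both *bambi* genes (rows) in each library (columns), as log2 CPM minus the gene's mean over the 6 libraries (color). Wildtype replicate 1 and mutant replicate 1 lie at the high and low ends for most rows. *msxb*, *msxc*, *id1* and *msxa*, which was not called, are lower in every mutant library than in any wildtype library, and *id4* is higher.

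Apart from the genotype, the pathway genes also differed between libraries of the same genotype. Among mutants, replicate 1 was lowest for 54 of the 80 genes (67.5%, against 34.0% of all genes tested) and replicate 3 was highest for 56 (70.0%, against 33.8%). With scaling to library totals alone these counts were 50 and 46. All 11 Smads and all 8 targets were lowest in mutant replicate 1. In wildtype, replicate 1 was highest for 7 of 8 targets (against 40.4% of all genes), the exception being *msxa*, and was lowest for 14 of 19 receptors (against 41.2% of all genes). *smad7*, for example, was at 97.8 CPM in wildtype replicate 1 and at 68.8 and 68.4 CPM in the other wildtype libraries, and *bambia* was at 44.0 CPM in mutant replicate 1 and 69.7 CPM in mutant replicate 3. The summed cartilage and mesenchyme list was also lowest in mutant replicate 1 (4205 CPM) and highest in mutant replicate 3 (5640 CPM), and the skeletal muscle list was at 18136 and 36890 CPM in these libraries. Summed hindbrain, lens and endothelium lists were also lowest in mutant replicate 1 and highest in mutant replicate 3. The reverse held for the retina, forebrain and otic vesicle lists. The roof plate and rhombic lip list and the epidermis list followed neither order. The part of any of these lists in the order of the pathway genes was not tested. These are counts of genes, which are not independent, and they are given as a description.

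Zebrafish keep many of these genes as duplicate copies, and 18 pairs with both copies tested were compared, named a and b in RefSeq. In 1 pair, *inhbaa* and *inhbab*, both copies were called, in 7 pairs only 1 copy was called, and in 10 pairs neither was. Of the 18 pairs, 13 had the same sign. Over all genes tested 33.3% were called, and pairs of other genes were not counted, so these numbers are a description only. In the pairs of *smad3*, *gdf10* and *fst* the b copy was called with values of -1.61, 1.71 and 1.07, beside -0.25, 0.19 and 0.02 for the a copy. The copies of *bmp7* lay about as far apart, at -0.87 and 0.36, but neither was called, and *bmp7a* was at most 1.30 CPM in any library. The difference between copies was not tested. *smad3b*, *fstb*, *tgfbr1b* and *inhbaa* were not whole numbers in some library. Estimated counts are fractional where reads were shared out among similar sequences, so the values of these genes are uncertain to that extent. This held for 38 of the 83 members and for 13 of the 25 called. Counts were whole in all libraries for the other 45 members, 12 of them called, and for 45.6% of all genes in the deposited table. For *smad3b* a fraction was visible only in wildtype replicate 1 (2300.6 counts), but counts were kept to few digits, so smaller fractions in other libraries would not show.

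**Figure D4:**
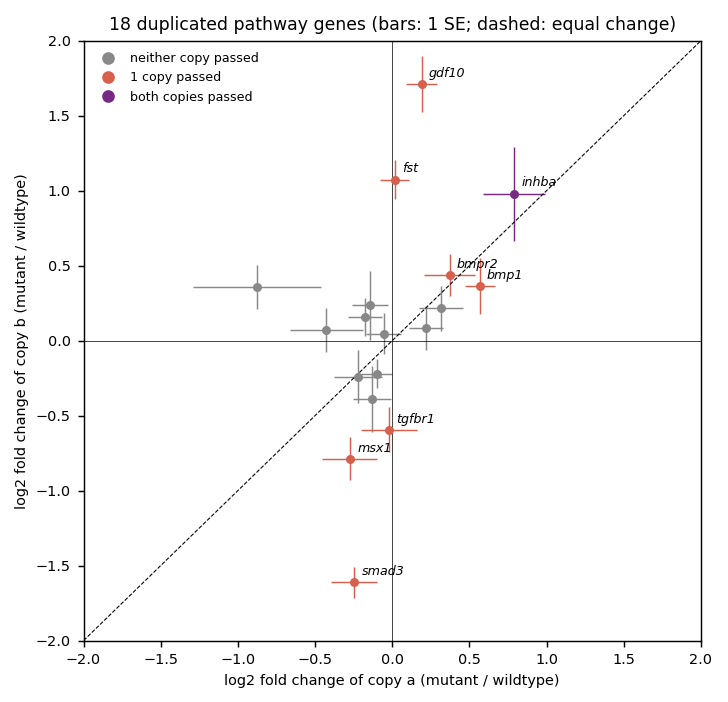
Log2 fold change of copy a (x axis) and copy b (y axis) of 18 duplicated pathway genes between *gas6* mutants and wildtype, with 1 SE (n = 3 libraries per genotype). The pairs of *gdf10*, *fst* and *smad3* lie far from the dashed line of equal change, at 0.19, 0.02 and -0.25 on the x axis, and *inhba* is the pair with both copies called.

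A further list held other genes of the pathway under names outside those used above, and of its 56 tested genes 11 rose and 9 fell (median 0.01). The share called, 20 of 56, was again near the 33.3% of all genes. This list shares *lmx1ba* and *lmx1bb* with the roof plate list and *dlx5a* with the forebrain list, and of these *lmx1bb* was called, lower in mutants. Among called genes the largest decreases were those of *fstl1a* (-1.14, SE 0.13, adjusted p = 7.04e-05), which encodes a follistatin-like glycoprotein, of *twsg1b* (-1.11, SE 0.23, adjusted p = 0.00362), a twisted gastrulation gene whose product binds BMPs, and of *skib* (-1.02, SE 0.12, adjusted p = 6.80e-05), a co-repressor that binds Smads. *skib* was at 114, 101 and 109 CPM in wildtype and 45.4, 53.5 and 60.5 CPM in mutants, without overlap. The copy *twsg1a* was called higher (0.43, SE 0.13, adjusted p = 0.0256). Its mean rose from 15.2 to 20.5 CPM, while that of the less abundant *twsg1b* fell from 4.67 to 2.13 CPM. The copies *fstl1b* and *skia* did not pass, with values of 0.11 and 0.24 (adjusted p = 0.402 and 0.071). Nor did *skilb*, the copy of *skila* described next (-0.03, adjusted p = 0.866). Among called genes the largest increases were those of *fstl3*, a follistatin-like gene whose product binds activins (1.00, SE 0.19, adjusted p = 0.00215), of *skila*, which encodes a relative of Ski (0.65, SE 0.15, adjusted p = 0.00558), and of *id2a*, a further *id* gene (0.64, SE 0.12, adjusted p = 0.00136). *id2a* was at 88.7, 70.4 and 69.3 CPM in wildtype and at 127, 119 and 111 CPM in mutants, and the groups did not overlap. Its copy *id2b* had a value of -0.05 (SE 0.16, adjusted p = 0.826), so that of the 5 *id* genes tested, *id1* fell, *id2a* and *id4* rose, and *id2b* and *id3* did not pass. Leaving out a library lowered the 20 to 11 without wildtype replicate 2, 13 without wildtype replicate 3, 10 without mutant replicate 2 and 12 without mutant replicate 3.

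Of the 25 calls among the 83 genes, 14 held in every alternative in which the gene was tested: *smad3b*, *gdf5*, *gdf10b*, *gdf11*, *bmp8a*, *inhbaa*, *inhbb*, *bmp1a*, *acvr2b*, *chrdl2*, *fstb*, *id1*, *msxb* and *msxc*. Of these, *chrdl2* was tested only because of its mutant levels, and it was not tested under the stricter filter. For *gdf5* and *bmp8a*, wildtype replicate 1 lay below 1 CPM before scaling. Both therefore met the stricter filter only with mutant libraries counted. The direction of change was the same in all alternatives for each of the 25. When libraries were scaled to their totals alone, the median of all genes shifted by 0.15 on the log2 scale, and the called genes were then 22 up and 6 down among the pathway genes, and 70.6% up among all called genes in place of 50.2%. The 7 pathway genes gained there were *acvr2aa*, *acvrl1*, *bmp10*, *bmp2a*, *bmp7b*, *gdf10a* and *tgfb3*, all higher in mutants. The number called higher fell from 15 to 9 without mutant replicate 2.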

How the data were processed

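The pathway members and gene lists were chosen with earlier results of these data known. The authors deposited 1 table of estimated counts per gene for 6 stranded mRNA libraries, not normalized. The submitters' processing notes name RSEM 1.2.28 and the builds GRCz10 and danRer7 without their roles, so no coordinates are printed. The deposited table also held the authors' fold change, log2 fold change and adjusted p-value, which were not used.

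Counts were rounded, filtered (filterByExpr, minimum count 10, minimum total 15), scaled by TMM and fitted in edgeR 4.0.16 under R 4.3.3 (glmQLFit, glmQLFTest, two-sided) with genotype as the only factor and 4 residual degrees of freedom. The SE was derived from the F statistic and had a median of 0.15 on the log2 scale. The fit was tested on simulated data in which few genes changed, as many up as down. In the real libraries far more genes differed, so that run cannot show how well the fit works here. Of the 83 names, 66 are RefSeq symbols (GRCz12tu), 10 are older names and 7 had no match.

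Named genes were called members with a more than 2-fold change, the 3 largest called changes per role and direction, the uncalled member with the smallest SE in each role, all targets, and 3 other pathway genes per direction. Further members, *inhbb*, *inhbaa*, *bmp8a* and *smad3a* among them, were named after their values were seen, to describe each role. Alternatives were RLE, upper quartile and no scaling, DESeq2 1.42.0, other filters, a replicate block and leaving out each library. A planned search of promoter sequences was not run. Values of 2 members are not reported here.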

Additional observations from a re-analysis of the deposited data

How the results depend on the processing

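Under 13 alternatives the number of pathway genes called stayed between 23 and 28 across the other scalings, filters and DESeq2, and between 17 and 30 when 1 library was left out. With the added limit of a more than 2-fold change it was 6, and 1975 genes over the whole table, as fewer genes meet a stricter limit. The number called higher ranged from 9 to 17, and the number called lower from 7 to 13, when 1 library was left out. The number called lower was 6 with library totals as the only scaling. Calls among the other pathway genes ranged from 10 to 19 when 1 library was left out. *gas6* stayed between -3.04 and -2.82. Of the named members, *fsta* changed sign without wildtype replicate 1 (-0.011) and without mutant replicate 1 (-0.021), within -0.021 to 0.038, and *msxd* without wildtype replicate 3 (-0.031) and without mutant replicate 3 (-0.0415), within -0.0415 to 0.19 over the left-out libraries. Neither was called in any of these. The causes were not tested. Libraries with the same replicate number did not deviate together (correlations of 0.02, -0.07 and 0.04 for replicates 1, 2 and 3). The labels do not say whether they shared a clutch or a batch, and such correlations cannot decide it. With the replicate number as a block 25 pathway genes were called (23 of them shared; *acvr1b* and *inhbab* lost, *bmp10* and *bmpr2a* gained), 19 other pathway genes and 6359 genes in all, and *gas6* was at -2.97. With 3 libraries per genotype, differences near the median SE of 0.15 were not resolved.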
